A study of Rattus norvegicus with 4 samples.

Results

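MHC class I molecules show peptides from inside the cell to CD8+ T cells and are read by inhibitory receptors of NK cells. The genes described here are the class I and peptide loading genes of the rat, taken as every gene symbol that begins with RT1-, the name of the rat MHC, apart from those beginning with RT1-B, RT1-D or RT1-H, together with B2m, Tap1, Tap2, Tapbp and Nlrc5. That rule gave 26 of the 22118 gene symbols measured, of which 21 are RT1- genes.

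The study profiled liver cells of Lewis rats by droplet single-cell RNA sequencing, with 1 library in each of 4 groups. NEVLPcty cells came from liver perfused outside the body for 4 h at 37 °C with IL-10 and TGF-β added, and NEVLP2 cells from liver perfused for 4 h at 37 °C without them. CS cells came from liver kept for 4 h at 4 °C, and naive cells from liver with no preservation. The labels state neither how many animals gave a library nor what the digit in NEVLP2 means. Per the labels, the perfusate contained human albumin, heparin, papaverine, insulin, hydrocortisone and packed Lewis red cells freed of leukocytes. Since each group is 1 library, treatment cannot be told apart from animal or preparation, no test was possible, and all 95% intervals below cover counting error only.

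An RT1- class I heavy chain pairs with β2-microglobulin, the product of B2m, and receives its peptide in the endoplasmic reticulum. Tap1 and Tap2 encode the paired subunits of the transporter that carries peptides in, Tapbp encodes tapasin, which tethers the heavy chain to it, and Nlrc5 is a transactivator of class I genes. In rats the RT1-A genes encode the classical class I molecules, whereas RT1-CE, RT1-N, RT1-S, RT1-T24 and RT1-M genes lie elsewhere in the complex and are mostly regarded as nonclassical. RT1-S3 is a relative of mouse Qa-1, which presents leader peptides of other class I chains to NK receptors, and RT1-M3-1 is a relative of mouse H2-M3, which in mice binds formylated peptides. Hepatocytes are known for low class I levels, and Kupffer cells, the macrophages of the liver sinusoids, for high ones.

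The promoters of the abundant members fall into groups by their letters. RefSeq windows (GRCr8, 250 bases before to 50 after the start) were matched to 22 of the 26 genes. The windows were searched on both strands for GAANNGAAA and GGGATTCCC. The first is a form of the paired half-sites bound by interferon regulatory factors, and the second a form of the κB element. GAANNGAAA was in 9 member windows and in 8.54% of 33469 rat promoters. The κB form was in 4 member windows and in 0.365% of promoters. Both were present in RT1-A1, RT1-A2, RT1-CE4 and RT1-CE10, which are 4 of the 13 promoters that hold both. The 60-base stretches were placed around GAANNGAAA in the first 6 lines and around another motif in the last 2, so they differ by that choice. RT1-T24-3 and RT1-S3, in the last 2 lines, are shown for their ratios between libraries. A link between these letters and the ratios was not tested. In the first 6 lines capitals mark GAANNGAAA in its reverse complement and, where present, GGGATTCCC:
RT1-A1: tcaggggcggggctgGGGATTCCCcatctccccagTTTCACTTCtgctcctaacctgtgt
RT1-A2: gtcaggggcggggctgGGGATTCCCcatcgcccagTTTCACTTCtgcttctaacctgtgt
RT1-CE4: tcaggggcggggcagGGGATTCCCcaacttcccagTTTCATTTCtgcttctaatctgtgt
RT1-CE10: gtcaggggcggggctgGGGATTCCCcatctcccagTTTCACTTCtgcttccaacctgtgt
RT1-CE5: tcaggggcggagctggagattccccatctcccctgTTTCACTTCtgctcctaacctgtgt
RT1-CE3: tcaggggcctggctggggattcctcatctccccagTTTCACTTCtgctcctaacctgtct
RT1-T24-3: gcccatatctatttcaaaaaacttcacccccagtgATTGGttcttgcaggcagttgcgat
RT1-S3: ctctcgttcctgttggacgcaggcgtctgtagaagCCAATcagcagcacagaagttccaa
In the last 2 lines capitals mark CCAAT on either strand, a motif that 37.5% of promoters hold. It was in 14 of the 22 member windows, those of the genes in the first 6 lines among them. The stretches lie at chr20:4907069-4907128 on the plus strand for RT1-A1, chr20:4872682-4872741 (plus) for RT1-A2, chr20:3509305-3509364 (minus) for RT1-CE4 and chr20:3385129-3385188 (minus) for RT1-CE10. Those of RT1-CE5, RT1-CE3, RT1-T24-3 and RT1-S3 lie at chr20:3484212-3484271 (minus), chr20:3525297-3525356 (minus), chr20:2723002-2723061 (plus) and chr20:2675453-2675512 (plus). All 8 lie before the annotated start of transcription. The windows of RT1-T24-3, RT1-S3, RT1-T24-4, RT1-M3-1, RT1-N3, B2m and Tap1 held neither GAANNGAAA nor GGGATTCCC. Other spellings and spacings of the half-sites were not searched for. The absence of GAANNGAAA therefore does not show that these windows lack a site for interferon regulatory factors. These are letters in the reference sequence, not measured binding sites.

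After filtering, 10523 NEVLPcty, 9318 NEVLP2, 9830 CS and 3197 naive cells remained, with median UMIs (unique molecular identifiers, each counting 1 captured molecule) of 5204, 3604, 4511 and 3823 per cell in that order. Clustering made without the 26 genes gave 27 clusters, and marker genes named 22 of them in 12 classes, each written with -like. The marker check held for most classes, with all 7 T cell, 8 NK, 8 Kupffer cell, 12 endothelial and 12 hepatocyte markers measured higher in their class than in the other named cells, and 6 of 8 for monocyte or macrophage-like cells. Unnamed clusters held 4.77% of NEVLPcty, 22.7% of NEVLP2, 22.8% of CS and 19.8% of naive cells. Barcodes removed for more than 20% mitochondrial UMIs were 1.11% in NEVLPcty, 4.28% in NEVLP2, 3.58% in CS and 13.9% in naive. Any pair of libraries shared between 6 and 26 barcodes. T-like, NK-like, B-like, plasmacytoid dendritic-like, neutrophil-like and stellate or fibroblast-like cells are 1 cluster each, whereas other classes sit in different clusters in different libraries. Hepatocyte-like cells are mostly cluster 12 in NEVLPcty (1115 of 1354), cluster 1 in NEVLP2 (3227 of 3498) and cluster 4 in CS (860 of 865) and naive (957 of 958). Kupffer-like cells are mostly cluster 9 in NEVLPcty (443 of 464) and NEVLP2 (700 of 705) and cluster 11 in CS (1035 of 1038), with 62 naive cells in cluster 9 and 107 in cluster 11. Monocyte or macrophage-like cells are mostly cluster 13 in the perfused libraries and cluster 19 in CS and naive. Endothelial-like cells are mostly cluster 0 in NEVLPcty, cluster 8 in NEVLP2 and clusters 2 and 7 in CS. Conventional dendritic-like cells share clusters 14 and 20, but cluster 23 holds 1 NEVLPcty cell and 0 NEVLP2 cells, against 165 CS and 95 naive cells. For these classes a difference between libraries cannot be told apart from a difference between clusters, except where a cluster has at least 30 cells in both libraries.

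RT1- genes took 1096583 UMIs over all retained cells, and 10 of the 21 took 99% of them. RT1-CE4 held 264526 (24.1%), RT1-CE5 211533, RT1-A1 211307, RT1-CE10 135897, RT1-T24-3 68687, RT1-S3 65955, RT1-A2 58149, RT1-T24-4 47219, RT1-N3 11276 and RT1-M3-1 11172. The 5 RT1-A and RT1-CE genes among them account for 80.4%. The other 11 RT1- genes held 10862 UMIs in all, RT1-M4 and RT1-M5 had none, and RT1-M6-1 had 3. RT1-M2 stood out among these rare genes, since 93.0% of its 2455 UMIs were in Kupffer-like cells. In CPM, a gene's UMIs scaled to the same total of all UMIs of those cells, its level there was 45.5 CPM in NEVLPcty, 72.3 CPM in NEVLP2, 74.4 CPM in CS and 75.3 CPM in naive. B2m held 2004765 UMIs, Tap1 34793, Tapbp 26750, Nlrc5 314 and Tap2 42. The class I genes are near-identical copies, the cells are of the Lewis strain and rat reference assemblies come from another strain, so how reads were divided among RT1- genes is uncertain and its part in the results was not tested. UMIs were not divided by gene length, so levels are compared within a gene, and shares within RT1- are shares of molecules counted.

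The summed RT1- level was at least 9.50-fold higher in Kupffer-like than in hepatocyte-like cells in every library, and hepatocyte-like cells were the lowest class apart from erythroid-like cells. Kupffer-like cells had 7065 CPM in NEVLPcty, 6731 CPM in NEVLP2, 8459 CPM in CS and 8961 CPM in naive. Hepatocyte-like cells had 455 CPM in NEVLPcty, 662 CPM in NEVLP2, 890.2 CPM in CS and 639.8 CPM in naive. In cluster 4 alone, the hepatocyte-like cluster that all 4 libraries share, the level was 784 CPM in NEVLPcty (187 cells), 982 CPM in NEVLP2 (221 cells), 891 CPM in CS and 639 CPM in naive, so that NEVLP2 was then above CS. Over whole classes the Kupffer-like level was 15.5-fold higher than the hepatocyte-like level in NEVLPcty, 10.2-fold in NEVLP2, 9.50-fold in CS and 14.0-fold in naive. Kupffer-like cells were the highest class in NEVLPcty, CS and naive, whereas NK-like cells (7834 CPM) and T-like cells (7548 CPM) were above them in NEVLP2. B-like cells (2886 to 3219.6 CPM) and plasmacytoid dendritic-like cells (1819 to 2711 CPM) were the lowest immune classes in every library. Erythroid-like cells, counted in naive only with 38 cells, had 109 CPM.

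**Figure D1:**
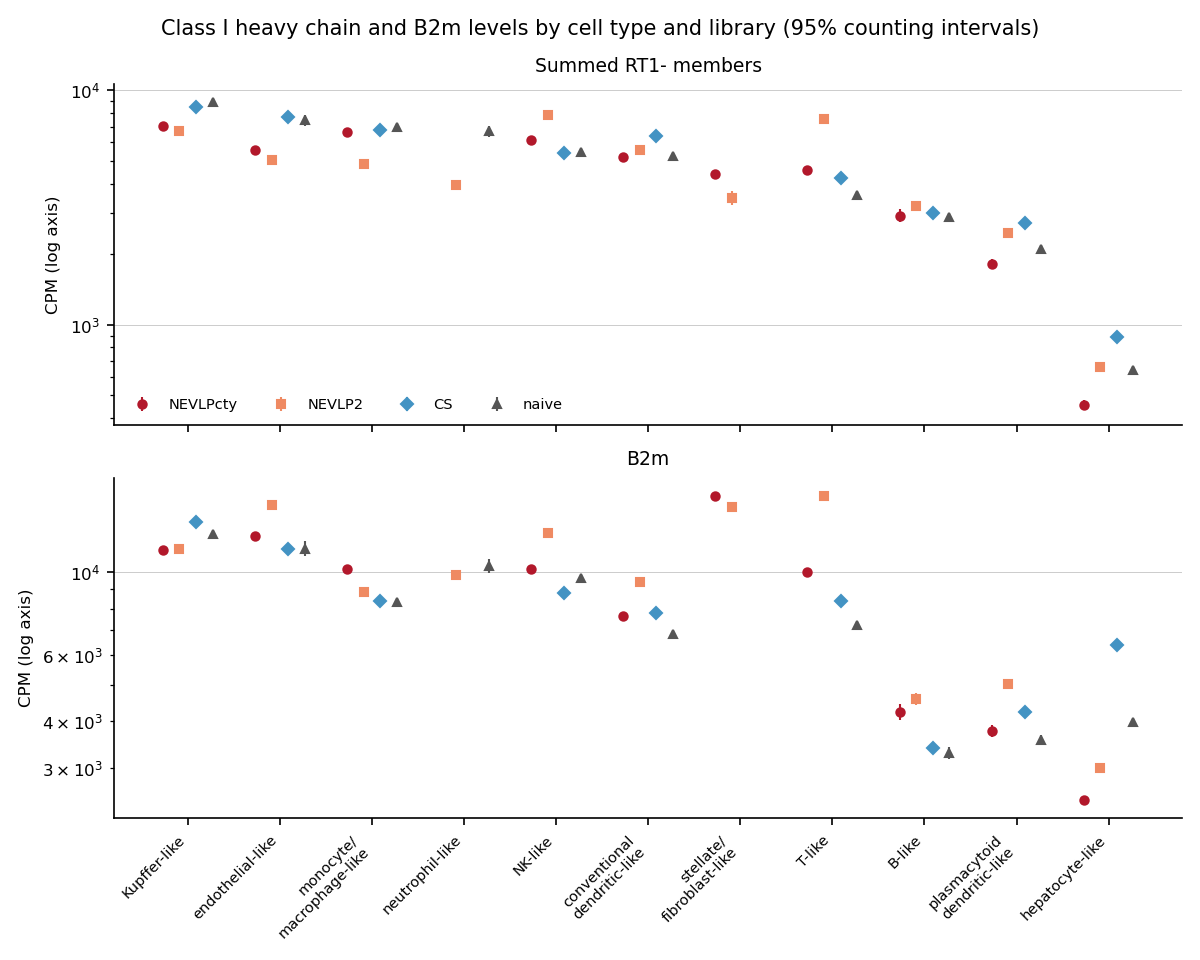
Summed RT1- level (top) and B2m level (bottom) in CPM on log axes, by cell type and library, with 95% counting intervals as bars; each point is 1 library's cells of that class, and classes with under 20 cells are not drawn. Hepatocyte-like cells sit at 455 to 890.2 CPM for RT1- in the 4 libraries, and the T-like point of NEVLP2 (7548 CPM) lies above the other 3 T-like points.

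B2m, the shared light chain, followed a different order of cell types. It was highest in stellate or fibroblast-like cells in NEVLPcty (16021 CPM), in T-like cells in NEVLP2 (16024 CPM) and in Kupffer-like cells in CS (13622 CPM) and naive (12679.9 CPM). Hepatocyte-like cells had 2467 CPM in NEVLPcty, 3008 CPM in NEVLP2, 6382 CPM in CS and 3983 CPM in naive. In cluster 4 alone B2m was 5965 CPM in NEVLPcty, 5407 CPM in NEVLP2, 6401 CPM in CS and 3984 CPM in naive, so the 2.12-fold lower level of NEVLP2 against CS over the class was 1.18-fold lower (1.14 to 1.23) within this cluster. The number of B2m UMIs per RT1- UMI had a median of 1.69 over 39 combinations of cell type and library, and ran from 1.14 in B-like cells of CS to 7.17 in hepatocyte-like cells of CS. Endothelial-like and Kupffer-like marker genes were also present in hepatocyte-like cells of CS, at 704 and 594 CPM (4.33% and 1.02% of their levels in their own classes), against 14.0 and 45.2 CPM in naive. Of the 12 endothelial markers, 4 were at 0 in hepatocyte-like cells of naive and 0 were in CS. Their part in the hepatocyte-like values was not tested.

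The make-up of the RT1- pool differed between cell types and libraries. UMIs of RT1-CE10 per RT1-A1 UMI stayed between 0.525 and 0.841 over the 39 combinations, a 1.60-fold range. RT1-CE4 per RT1-A1 ran from 0.710 to 1.77 and RT1-CE5 per RT1-A1 from 0.50 to 1.73. RT1-A2 per RT1-A1 ran from 0.0952 in plasmacytoid dendritic-like cells of NEVLPcty to 0.462 in stellate or fibroblast-like cells of NEVLP2. RT1-S3 per RT1-A1 ran from 0.0558 to 1.28, and RT1-T24-3 per RT1-A1 from 0.0163 to 2.20, a 135-fold range. RT1-T24-3 made up 22.8% of RT1- UMIs in endothelial-like cells of CS and 0.357% in conventional dendritic-like cells of NEVLPcty. RT1-S3 had its highest share in hepatocyte-like cells of CS (14.4%). RT1-M3-1 ran from 0.0508% in hepatocyte-like cells of naive, where it had 1 UMI, to 3.80% in B-like cells of CS.

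**Figure D2:**
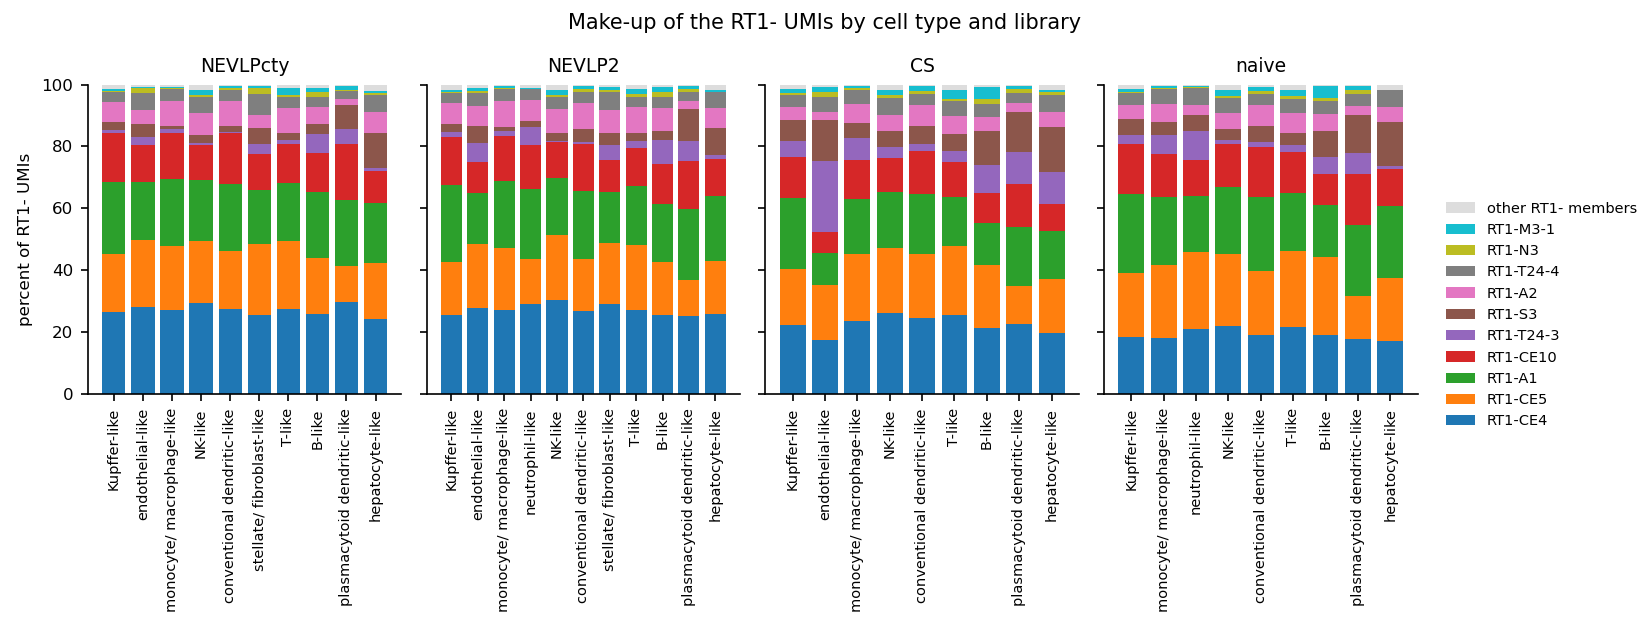
Share of RT1- UMIs (percent) held by each of the 10 abundant RT1- genes, stacked by cell type, with 1 panel per library; grey is the sum of the other RT1- genes, and classes with under 30 cells in a library are not drawn. The purple block of RT1-T24-3 reaches 22.8% in endothelial-like cells of CS, and RT1-CE10 stays at 0.525 to 0.841 of RT1-A1.

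Comparisons between libraries used classes with at least 30 cells in both, genes with at least 10 UMIs in both together, and a ratio of at least 2-fold as the mark of a difference. In NEVLP2 against naive, 18 of 142 pairs of a member gene and a cell type were at least 2-fold higher (12.7%) and 10 were at least 2-fold lower (7.04%), where 16% and 24.2% of pairs over all genes were. In NEVLP2 against CS, 7 of 154 pairs were higher (4.55%) and 26 lower (16.9%), against 11.7% and 27.6% over all genes. In NEVLPcty against NEVLP2, 3 of 166 pairs were higher (1.81%) and 12 lower (7.23%), against 11.9% and 7.62%. In CS against naive, 10 of 132 pairs were higher (7.58%) and none was lower, against 8.67% and 4.91%. As a group the members were therefore near or below the shares of all genes. Many of the pairs at the mark came from a few genes or from T-like cells. Neutrophil-like cells also had several members lower in NEVLP2 against naive. The shares of all genes include many genes with few UMIs and were not matched to the members for abundance. The all-gene median itself was shifted in NEVLP2 against CS, to -0.55 (log2) in Kupffer-like, -0.63 in monocyte or macrophage-like, -0.63 in conventional dendritic-like, -0.74 in endothelial-like and 0.35 in hepatocyte-like cells. Scaling by the median of ratios, which removes this shift, gave 17 pairs higher and 18 lower in that comparison.

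**Figure D3:**
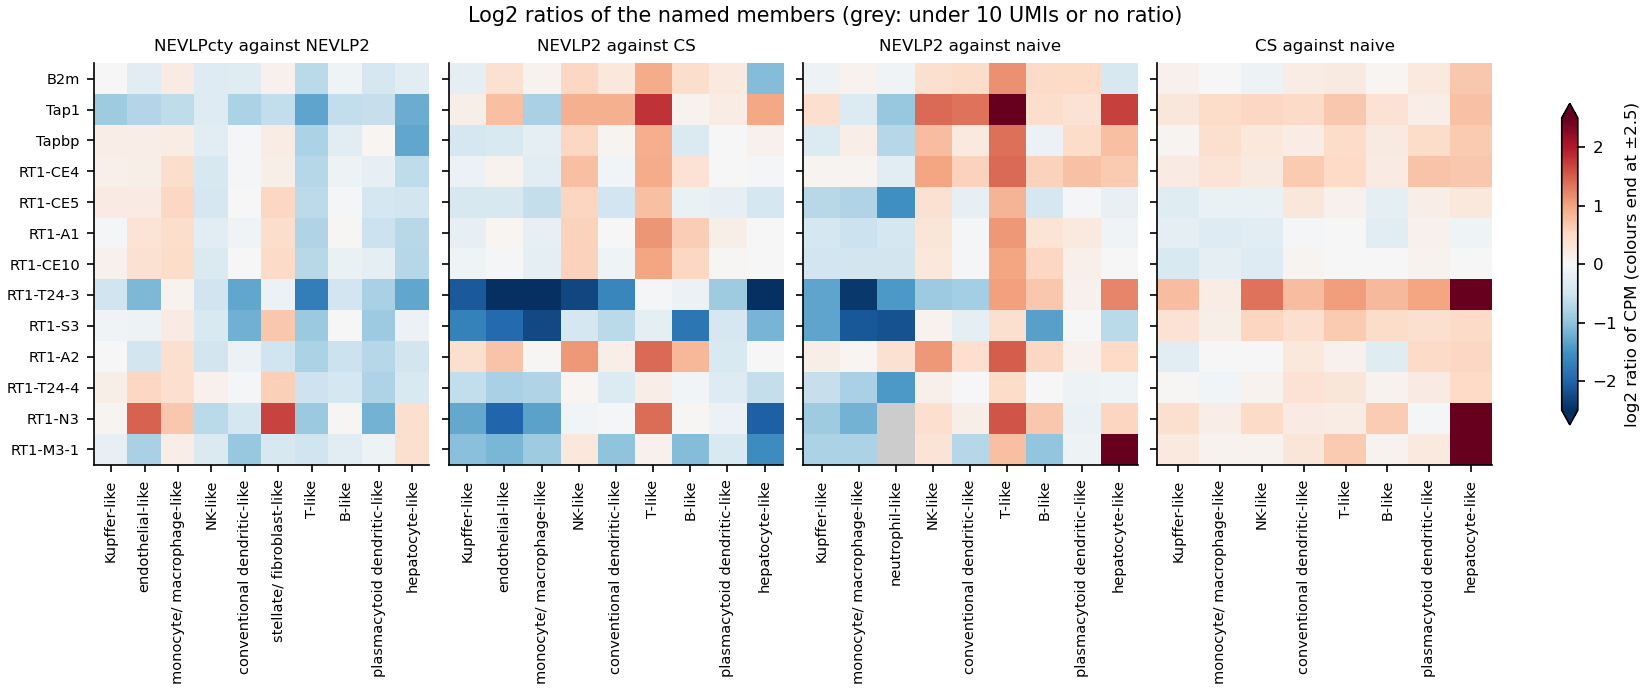
Log2 ratio of CPM for the named members (rows) by cell type (columns) in the 4 comparisons (panels), red where the first-named library is higher and blue where it is lower; colours end at ±2.5 and grey marks genes with too few UMIs. The T-like columns of the panels for NEVLP2 against CS and against naive are mostly red, the RT1-T24-3 and RT1-S3 rows of NEVLP2 against CS are mostly blue, and the Tap1 row of NEVLPcty against NEVLP2 is blue in 10 of 10 classes.

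T-like cells, which are 1 cluster in all 4 libraries, had higher class I and loading gene levels in NEVLP2 than in the other libraries. Summed RT1- was 4564 CPM in NEVLPcty (103 cells), 7548 CPM in NEVLP2 (145 cells), 4224 CPM in CS (165 cells) and 3569.9 CPM in naive (312 cells). B2m was 10022 CPM in NEVLPcty, 16024 CPM in NEVLP2, 8369.6 CPM in CS and 7210.1 CPM in naive. NEVLP2 is the high library for both, and NEVLPcty lies between NEVLP2 and CS. The trait was not particular to T-like cells, since NK-like cells, also 1 cluster, were highest in NEVLP2 too. Their summed RT1- was 6130 CPM in NEVLPcty, 7834 CPM in NEVLP2, 5398 CPM in CS and 5452 CPM in naive. In the same order of libraries, their B2m was 10178, 12712, 8824 and 9633 CPM.

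In NEVLP2 against naive, 10 of the 17 members counted in T-like cells were at least 2-fold higher and none was lower, where 13.4% of all genes were at least 2-fold higher and 14.7% lower and the all-gene median was 0.05 (log2). Tap1 was 5.62-fold higher (4.97 to 6.37), RT1-N3 2.96-fold (2.18 to 4.03), RT1-A2 2.87-fold (2.60 to 3.17), RT1-CE4 2.67-fold (2.53 to 2.82), Tapbp 2.60-fold (2.23 to 3.02), B2m 2.22-fold (2.18 to 2.26) and RT1-A1 2.13-fold (2.0 to 2.27). RT1-CE10 was 1.99-fold and RT1-CE5 1.81-fold higher, just under the mark, and RT1-S3 1.33-fold. The remaining 3 of the 10 were RT1-T24-3 (2.02-fold) and the rarer RT1-CE7 and RT1-CE1. In NEVLPcty against NEVLP2, 3 of 16 members were at least 2-fold lower in T-like cells, RT1-T24-3, Tap1 and RT1-CE7, and none was higher, against 7.39% and 8.3% of all genes. The members' median log2 ratio there was -0.77, with 0.01 over all genes. Marker genes of other cells in T-like cells were measured too. Kupffer cell markers were at 40.8 CPM in NEVLPcty, 140 CPM in NEVLP2, 299 CPM in CS and 28.7 CPM in naive, at most 0.513% of the Kupffer-like level in every library, and their part in the T-like values was not tested.

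Tap1, the transporter subunit, was the member with the largest ratio in T-like cells. Its level was 252 CPM in NEVLPcty (interval 220 to 287), 625 CPM in NEVLP2 (581 to 670.0), 178 CPM in CS (153 to 205) and 111 CPM in naive (100.3 to 123). The interval of NEVLP2 overlaps none of the others. The ratio of NEVLP2 to naive was 6.33-fold (5.20 to 7.73) in T-like cells with a Cd8a or Cd8b UMI (67 and 109 cells) and 5.13-fold (4.37 to 6.05) in those without (78 and 203 cells), so it was seen in both.

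Tap1 was lower in NEVLPcty than in NEVLP2 in 10 of 10 classes, T-like cells included, before and after subtracting the all-gene median. The difference ran from 1.25-fold lower in NK-like cells (239 against 299 CPM, interval 1.10 to 1.42) to 2.48-fold lower in T-like cells (2.14 to 2.89). Conventional dendritic-like cells had 216 CPM in NEVLPcty and 373 CPM in NEVLP2, 1.72-fold lower (1.63 to 1.82), and Kupffer-like cells 88.7 and 165 CPM, 1.86-fold lower (1.68 to 2.06). Endothelial-like cells had 167 and 276 CPM in those libraries, 1.65-fold lower (1.53 to 1.79). In B-like cells, with 47 and 85 cells, the interval of the 1.53-fold difference includes no change (0.969 to 2.5). The 2.37-fold lower level in hepatocyte-like cells (1.62 to 3.56) sets mostly cluster 12 against cluster 1. It was 3.30-fold lower (1.10 to 13.3) in cluster 4 alone and turned to 2.58-fold higher (0.524 to 7.72) in cluster 1 alone, where NEVLPcty had 52 cells.

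Tap1 in NEVLP2 was above CS in 8 of 9 classes, and monocyte or macrophage-like cells went the other way with 93.8 CPM in NEVLP2 and 164 CPM in CS (1.75-fold lower, 1.51 to 2.02). Those cells are cluster 13 in NEVLP2 and mostly cluster 19 in CS and naive. In conventional dendritic-like cells the class was 1.85-fold higher in NEVLP2 than in CS (1.73 to 1.97), but it was 2.35-fold higher in cluster 20 (2.15 to 2.56) and 1.47-fold lower in cluster 14 (1.23 to 1.75), so its direction differed between clusters. Against naive, Tap1 in NEVLP2 was higher in 7 of 9 classes, by 2.66-fold in NK-like (2.24 to 3.18) and 2.57-fold in conventional dendritic-like cells (2.36 to 2.81). Within conventional dendritic-like cluster 14, Tap1 had 252 CPM in NEVLP2 and 201 CPM in naive (35 naive cells). In cluster 20 it had 556 and 199 CPM, and cluster 23, which has no NEVLP2 cells, had 99.9 CPM in naive. Tap1 was lower than in naive in neutrophil-like cells, with 198 CPM in NEVLP2 and 381 CPM in naive. It was also lower in monocyte or macrophage-like cells, which turned higher (log2 0.29) after subtracting the all-gene median. Kupffer-like cells were 1.35-fold higher (1.17 to 1.55), whereas cluster 9 alone, with 62 naive cells, was 1.45-fold lower with an interval that includes no change (0.906 to 2.20). In CS against naive Tap1 was higher in 8 of 8 classes, by 1.13-fold to 1.67-fold, and in plasmacytoid dendritic-like, B-like and hepatocyte-like cells the interval included no change.

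**Figure D4:**
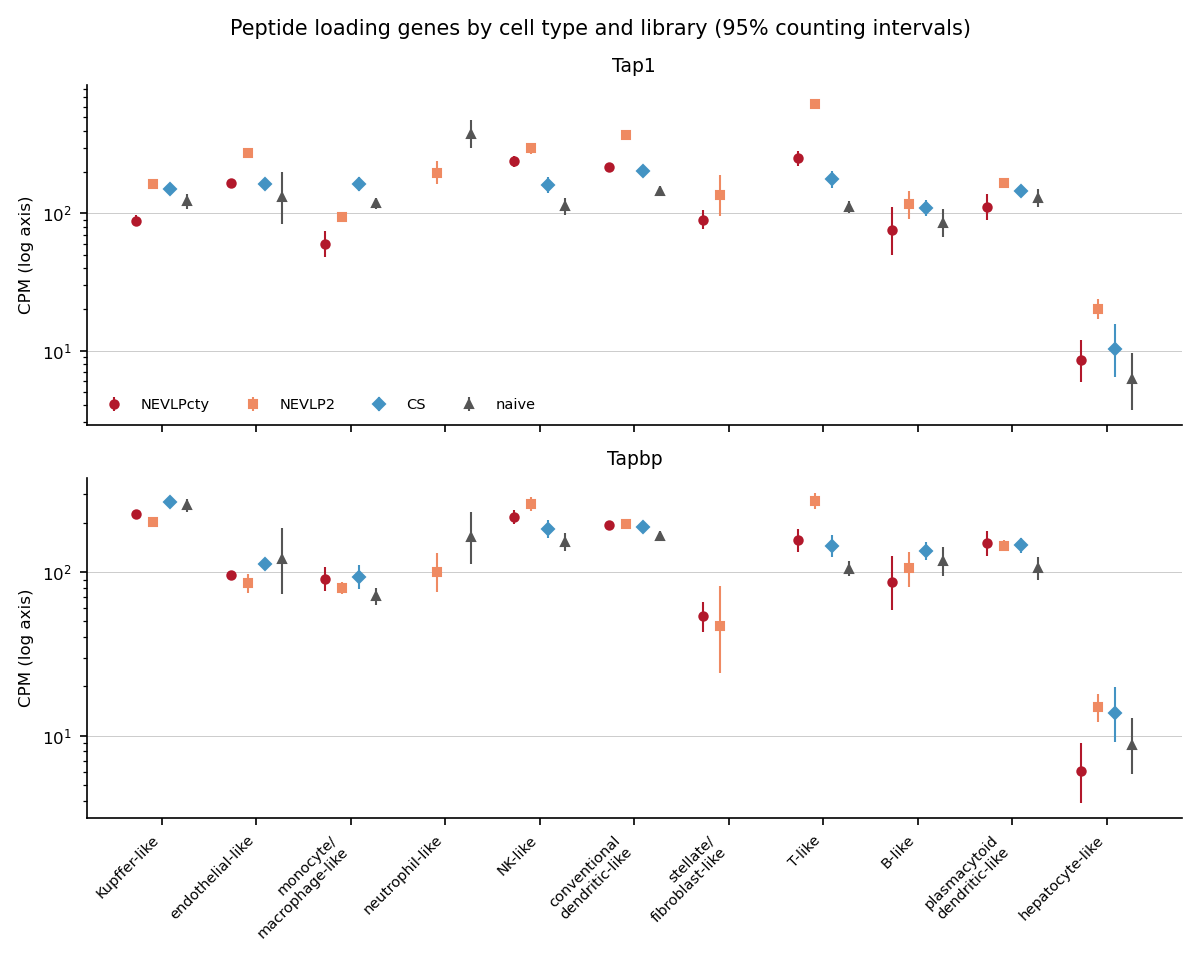
Tap1 (top) and Tapbp (bottom) in CPM on log axes by cell type and library, with 95% counting intervals as bars. Tap1 in NEVLPcty lies below NEVLP2 in each class drawn for both, and the T-like points are 252, 625, 178 and 111 CPM from left to right.

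Tapbp, which encodes tapasin, had its T-like maximum in NEVLP2 as Tap1 did. It had 227 CPM in NEVLPcty, 202 CPM in NEVLP2, 269 CPM in CS and 257 CPM in naive in Kupffer-like cells, and 157, 273, 145 and 105 CPM in T-like cells in the same order of libraries. Nlrc5 was close to the limit of detection, at 4.42 CPM or less in every class and library, and Tap2 had 42 UMIs in all. In conventional dendritic-like cells Nlrc5 had 29 UMIs in NEVLP2, 10 in CS and 3 in naive, and the ratio of NEVLP2 to naive was 3.81 (1.18 to 19.6). For Tap2 a difference between libraries was not detectable at this depth.

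Over whole classes, RT1-T24-3 was lower in both perfused libraries than in CS and naive in endothelial-like, Kupffer-like, conventional dendritic-like, NK-like and monocyte or macrophage-like cells. Its level over whole libraries was 101 CPM in NEVLPcty, 116 CPM in NEVLP2, 886 CPM in CS and 159 CPM in naive, where the naive library holds only 27 endothelial-like cells and CS 4086. In endothelial-like cells it was 145 CPM in NEVLPcty, 315 CPM in NEVLP2, 1762 CPM in CS and 1441 CPM in naive. The perfused libraries are low and CS and naive are high, with no overlap of the intervals of the perfused and the other libraries. The perfused cells here are mostly clusters 0 and 8, those of CS clusters 2 and 7, and 25 of the 27 naive cells are cluster 7. The 38 NEVLPcty cells in cluster 7 had 1297 CPM, against 1982 CPM in the 1308 CS cells of that cluster, so the cells of this cluster were high in NEVLPcty too. Against naive, NEVLP2 was 1.24-fold lower in Kupffer-like cluster 9 alone (0.616 to 2.23) and 1.02-fold lower in conventional dendritic-like cluster 20 alone (0.788 to 1.31), with intervals that include no change.

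In NEVLP2 against CS, RT1-T24-3 was lower in 9 of 9 classes, at least 2-fold in 6. The T-like ratio of -0.02 (log2) turns to 0.04 after subtracting the all-gene median. It was 5.60-fold lower in endothelial-like cells (5.22 to 6.01), 6.05-fold in monocyte or macrophage-like (5.42 to 6.76), 4.83-fold in NK-like (3.69 to 6.41), 4.27-fold in Kupffer-like (4.00 to 4.57) and 3.10-fold in conventional dendritic-like cells (2.77 to 3.47). Kupffer-like cells of NEVLP2 are cluster 9 (96.9 CPM) and those of CS cluster 11 (425 CPM), and within naive cluster 9 had 120 CPM and cluster 11 had 256 CPM. Monocyte or macrophage-like cells likewise set cluster 13 against mostly cluster 19. Within conventional dendritic-like clusters NEVLP2 was 1.87-fold lower than CS in cluster 20 (1.56 to 2.24) and 2.35-fold in cluster 14 (1.62 to 3.33), and cluster 23, which has no NEVLP2 cells, had 188 CPM in CS. The hepatocyte-like difference of 9.50-fold was 5.40-fold (2.79 to 12.0) in cluster 4 alone. In endothelial-like cells 6 of 19 members were at least 2-fold lower and none was higher, where 43.2% of all genes were lower and 11.9% higher, so the count of members was not above that of all genes. RT1-T24-3 itself remained at -1.74 (log2) there after subtracting the all-gene median. B-like cells had 248 CPM in NEVLP2 and 274 CPM in CS, and T-like cells 151 and 153 CPM, differences within the counting intervals.

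RT1-T24-3 in CS was above naive in 8 of 8 classes. NK-like cells had 198 CPM in CS and 77.2 CPM in naive (2.57-fold, 2.07 to 3.2), T-like cells 153 and 74.6 CPM (2.06-fold, 1.68 to 2.51), and Kupffer-like cells 425 and 249 CPM (1.70-fold, 1.55 to 1.87). Hepatocyte-like cells had 94.2 CPM in CS and 4.23 CPM in naive, from 192 and 13 UMIs, a 22.3-fold difference (12.7 to 42.6). The hepatocyte-like level of RT1-T24-3 was 5.35% of the endothelial-like level in CS and 0.293% in naive, beside 4.33% and 0.0639% for the summed endothelial markers, and the part of endothelial RNA in this value was not tested. RT1-M3-1 in these cells had 15 UMIs in CS and 1 in naive, a ratio of 22.6 with an interval of 3.48 to 953.

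RT1-T24-3 in NEVLPcty was lower than in NEVLP2 in 9 of 10 classes, at least 2-fold in T-like (3.33-fold, 2.37 to 4.80), conventional dendritic-like (2.46-fold, 2.07 to 2.94), endothelial-like (2.18-fold, 2.02 to 2.34) and hepatocyte-like cells (2.46-fold, 1.41 to 4.55). The endothelial-like difference was log2 0.00 in cluster 8 alone (978 and 381 cells), -0.79 in cluster 0 alone (4749 and 121 cells) and 0.09 over the class with a limit of 10% mitochondrial UMIs. The hepatocyte-like difference sets mostly cluster 12 against cluster 1, and in cluster 4 alone it turned to log2 0.16, with 19.6 CPM in NEVLPcty and 17.5 CPM in NEVLP2. In endothelial-like cells RT1-T24-3 was the only member at least 2-fold lower and RT1-N3 the only one higher of 19, against 10.3% and 13.1% of all genes.

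RT1-S3, the Qa-1 relative, had the same order of libraries as RT1-T24-3 in several classes. Endothelial-like cells had 245 CPM in NEVLPcty, 267 CPM in NEVLP2, 1026 CPM in CS and 711 CPM in naive. Monocyte or macrophage-like cells had 80.1 CPM in NEVLPcty, 69.4 CPM in NEVLP2, 333 CPM in CS and 299.9 CPM in naive. The perfused libraries were low in both classes. NEVLP2 was below CS in 9 of 9 classes, before and after subtracting the all-gene median, and at least 2-fold in 5. It was 4.79-fold lower in monocyte or macrophage-like (4.23 to 5.43), 3.83-fold in endothelial-like (3.55 to 4.14), 3.50-fold in B-like (2.68 to 4.64) and 3.21-fold in Kupffer-like cells (3.05 to 3.37). Kupffer-like cells again set cluster 9 of NEVLP2 (185 CPM) against cluster 11 of CS (599.9 CPM), and within naive cluster 9 had 240 CPM and cluster 11 had 478 CPM. The hepatocyte-like difference of 2.23-fold (1.90 to 2.61) was 1.74-fold (1.23 to 2.51) in cluster 4 alone. Conventional dendritic-like cells, 1.60-fold lower as a class, were 4.61-fold lower in cluster 14 (307 and 38 cells) and 1.32-fold in cluster 20. T-like cells again differed least, with 197 CPM in NEVLP2 and 234 CPM in CS (1.19-fold, 0.995 to 1.43). RT1-S3 in CS was above naive in 8 of 8 classes, by log2 0.15 to 0.66. In NEVLPcty it was 2.29-fold lower than in NEVLP2 in conventional dendritic-like cells (102 and 232 CPM, 2.12 to 2.46).

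**Figure D5:**
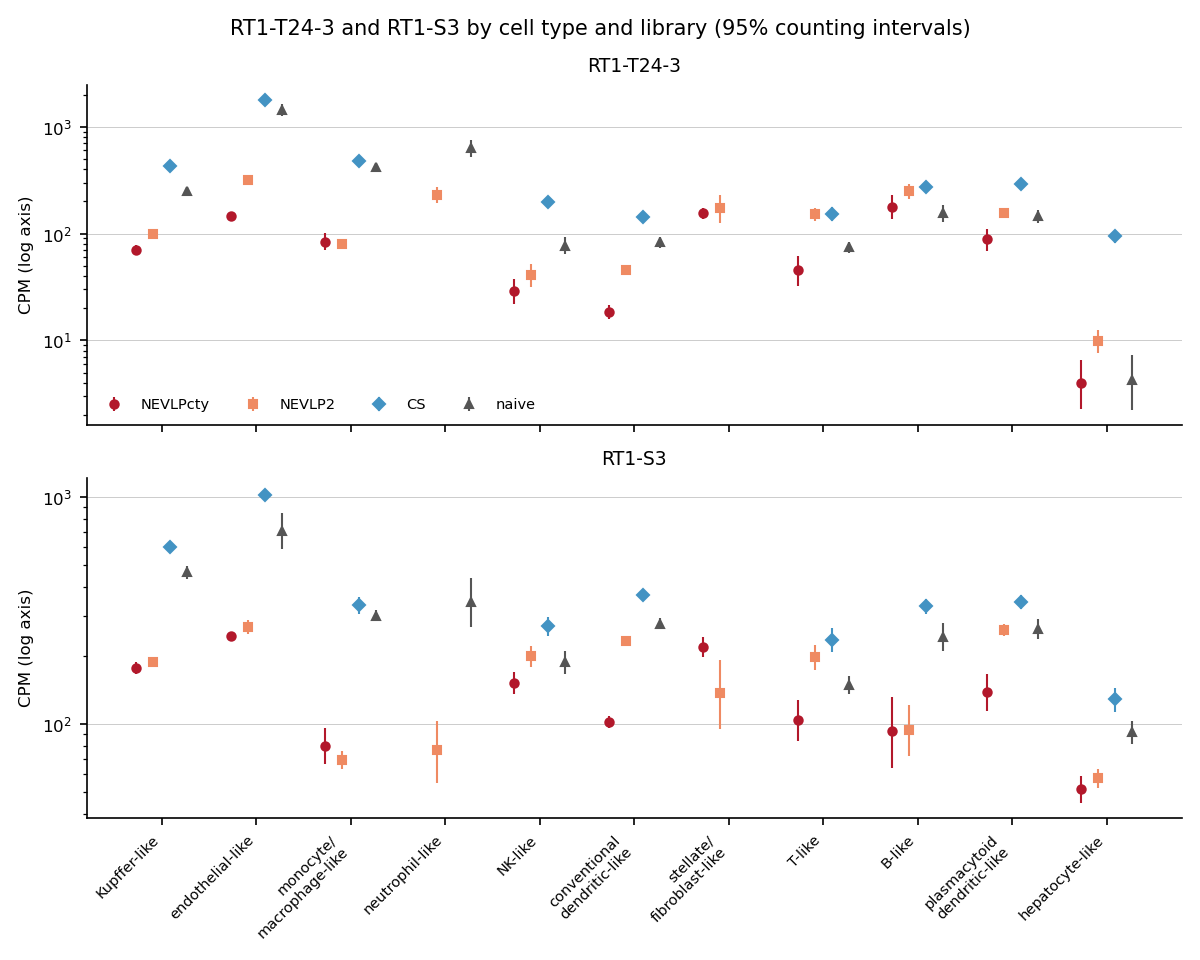
RT1-T24-3 (top) and RT1-S3 (bottom) in CPM on log axes by cell type and library, with 95% counting intervals as bars. In endothelial-like cells the NEVLPcty and NEVLP2 points of RT1-T24-3 lie at 145 and 315 CPM, and those of CS and naive at 1762 and 1441 CPM, the naive point resting on 27 cells.

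The other abundant RT1- genes moved less. RT1-A2, a classical-region gene, was higher in NEVLP2 than in naive in 9 of 9 classes (8 after subtracting the all-gene median, hepatocyte-like cells turning lower) and at least 2-fold in T-like and NK-like cells. Its level in NEVLPcty was below NEVLP2 in 9 of 10 classes, by less than 2-fold in each. RT1-CE4 was higher in CS than in naive in 8 of 8 classes, by log2 0.21 to 0.71. RT1-A1, in contrast, was lower in CS than in naive in 7 of 8 classes, by at most 1.26-fold. In neutrophil-like cells, with 203 cells in NEVLP2 and 75 in naive, RT1-CE5 had 569 CPM in NEVLP2 and 1654 CPM in naive. This was the sole class where it passed 2-fold. RT1-S3 had 76.4 CPM in NEVLP2 and 345 CPM in naive there, RT1-T24-4 138 and 376 CPM, and RT1-T24-3 231 and 628 CPM. The summed RT1- level of these cells was 3957 CPM in NEVLP2 and 6676 CPM in naive. RT1-A2 went the other way, with 262 and 201 CPM. RT1-M3-1, the H2-M3 relative, was lower in NEVLP2 than in CS in 7 of 9 classes and at least 2-fold in 5. Kupffer-like cells here set cluster 9 of NEVLP2 (45.9 CPM) against cluster 11 of CS (95.2 CPM). Within naive, cluster 9 had 109 CPM and cluster 11 had 79.1 CPM. The hepatocyte-like difference rests on few UMIs, and in cluster 4 alone the level was 0 CPM in NEVLP2 and 6.89 CPM in CS.

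RT1-N3 differed in direction between cell types. In endothelial-like cells it had 89.5 CPM in NEVLPcty, 32.3 CPM in NEVLP2, 128 CPM in CS and 54.3 CPM in naive, and in stellate or fibroblast-like cells 88.1 CPM in NEVLPcty and 27.4 CPM in NEVLP2. NEVLPcty was 2.77-fold above NEVLP2 in endothelial-like cells (2.23 to 3.49) and 3.22-fold in stellate or fibroblast-like cells (1.53 to 8.15, with 153 and 7 UMIs). In endothelial-like cluster 8 alone it was 1.46-fold above. The third pair at least 2-fold higher in NEVLPcty was the rare RT1-CE7 in monocyte or macrophage-like cells, named after its value was seen.

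Genes around class I were followed as lists of the pathway. Among the 19 measured regulators of class I transcription, 55 of 158 pairs of gene and class were at least 2-fold higher and 20 lower in NEVLP2 against naive, and 9 were higher and 32 lower of 177 in NEVLPcty against NEVLP2. Over all genes the shares of pairs higher and lower were 16% and 24.2% in the first comparison, and 11.9% and 7.62% in the second. Irf1, an activator of interferon-responsive genes, was lower in NEVLPcty than in NEVLP2 in 9 of 10 classes, at least 2-fold in 7, with a median log2 ratio of -1.58. Socs1, an inhibitor of cytokine signalling, was at least 2-fold higher in NEVLP2 than in CS in 7 of 9 classes and at least 2-fold lower in NEVLPcty than in NEVLP2 in 8 of 10. Nfkb1, which encodes an NF-κB subunit, was at least 2-fold higher in NEVLP2 than in CS in 8 of 9. Other regulators were lower in NEVLP2. Nfyb was at least 2-fold lower in 8 of 9 classes, against CS and against naive alike, and higher in hepatocyte-like cells. Rfxank was lower than in CS in 9 of 9 classes, at least 2-fold in 5. Rfx5 was at least 2-fold lower than in CS in 4 of 9. In NEVLP2 against CS, 41 of 162 pairs of the list were at least 2-fold higher and 29 lower, where 11.7% and 27.6% over all genes were. Comparisons that use NEVLP2 share that library, so these counts are not independent of each other.

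The immunoproteasome, which cuts peptides for class I, had 5 genes measured. In NEVLP2 against CS 2 of its 45 pairs were at least 2-fold higher and 12 lower, where 11.7% and 27.6% of pairs over all genes were. In NEVLPcty against NEVLP2 none of its 50 pairs was higher and 1 was lower, where 11.9% and 7.62% over all genes were. Psmb9, the neighbour of Tap1 whose promoter window shares 44 bases with that of Tap1, was below NEVLP2 in NEVLPcty in 10 of 10 classes (log2 -0.90 to -0.21). Psmb10 was at least 2-fold lower in NEVLP2 than in CS in 5 of 9 classes. Psme2, an activator subunit, was higher in NEVLP2 than in naive in 9 of 9 classes and at least 2-fold in 4.

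Among the 8 peptide loading partners, 4 of 63 pairs were higher and 14 lower in NEVLP2 against CS, and 6 were higher and 3 lower of 70 in NEVLPcty against NEVLP2, where 11.7% and 27.6% of all genes were higher and lower in the first comparison and 11.9% and 7.62% in the second. Erap1, which trims peptides in the endoplasmic reticulum, was lower in NEVLP2 than in CS in 9 of 9 classes, at least 2-fold in 3. Calr, the chaperone calreticulin, was higher in 7 of 9 and at least 2-fold in 3. Uggt1, another gene of this list, was lower in NEVLP2 than in CS in 9 of 9 classes, at least 2-fold in 6. In NEVLPcty it was higher than in NEVLP2 in 10 of 10 classes, at least 2-fold in 5, so much of both counts came from this gene.

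Class I-like genes outside the RT1 group had 9 pairs higher and 18 lower of 42 in NEVLP2 against CS, beside 11.7% higher and 27.6% lower over all genes. Hfe, a regulator of iron uptake, was at least 2-fold lower in 5 of 5 classes, and Cd1d1, which presents lipids, in 6 of 9. Procr, the endothelial protein C receptor, was at least 2-fold higher in 7 of 8. Fcgrt, the neonatal Fc receptor, was at least 2-fold higher in CS than in naive in 5 of 8 classes and at least 2-fold lower in NEVLP2 than in CS in 5 of 9.

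The 8 class II genes were counted in the same way. In NEVLP2 against naive 26 of their 52 pairs were at least 2-fold higher and 5 lower. The members had 18 and 10 of 142, and all genes 16% and 24.2%. The higher class II pairs were in T-like (5), NK-like (5), monocyte or macrophage-like (5), neutrophil-like (5) and hepatocyte-like cells (6). B-like, Kupffer-like, conventional dendritic-like and plasmacytoid dendritic-like cells had 0 higher and held all the lower pairs. The part of RNA from other cells in these counts was not tested. In NEVLPcty against NEVLP2 1 of 56 class II pairs was higher and 16 were lower, against 3 and 12 of 166 for the members and 11.9% and 7.62% over all genes. Cells that markers could not name are represented by the largest such cluster with most of its cells in NEVLP2. Its 1976 NEVLP2 cells had 5293 CPM summed RT1-, 13356 CPM B2m and 412 CPM Tap1. Its 97 NEVLPcty cells had 5145, 12106 and 206 CPM in the same order of genes. Its 36 naive cells had 5449, 17219 and 944 CPM, so Tap1 was lower in NEVLP2 than in naive there.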

How the data were processed

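The labels list Cell Ranger 2.1.1 and the file header 6.0.0, and no genome build is stated in either. The authors deposited UMI counts per gene and barcode; 132 features that repeat a symbol were summed. Retained barcodes had 200 or more genes, 500 or more UMIs and no more than 20% of them mitochondrial, and the highest Scrublet scores were removed as doublets at 0.8% per 1000 barcodes, because Scrublet's own threshold called 0 in NEVLPcty and 3 in naive. Cells were clustered with scanpy 1.11.5 (2000 variable genes without the members and lists, 30 components, 15 neighbours, Leiden resolution 1). Clusters were named from marker lists. Counts were summed per library and class, as CPM with exact Poisson intervals, and ratios have exact conditional binomial intervals. A gene at 0 in 1 library was set to 3 counts there. The ratio code was tested on simulated data. RT1- genes with at least 1% of RT1- UMIs are named, with B2m, Tap1, Tap2, Tapbp and Nlrc5. Members and lists were chosen with earlier results of these data known. Alternatives covered scaling, filters, doublets, clustering and single clusters.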

Additional observations from a re-analysis of the deposited data

Results flagged for a closer look

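Members whose ratio between the same libraries was at least 2-fold higher in 1 cell type and at least 2-fold lower in another stood apart, and the difference between the cell types was not tested in any of them. RT1-N3 in NEVLP2 against naive had a log2 ratio of 1.57 in T-like and -1.18 in monocyte or macrophage-like cells. In NEVLP2 against CS, RT1-N3 had 1.39 in T-like and -2.05 in hepatocyte-like cells. In NEVLPcty against NEVLP2, RT1-N3 had 1.69 in stellate or fibroblast-like and -1.19 in plasmacytoid dendritic-like cells, which rest on 7 UMIs in NEVLP2 and 9 UMIs in NEVLPcty. RT1-T24-3 in NEVLP2 against naive had 1.23 in hepatocyte-like and -2.41 in monocyte or macrophage-like cells. RT1-CE7 in NEVLPcty against NEVLP2 had 1.08 in monocyte or macrophage-like and -1.28 in hepatocyte-like cells. Monocyte or macrophage-like cells of NEVLP2 and naive, and hepatocyte-like cells of different libraries, lie mostly in different clusters, as described above.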

How the results depend on the processing

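No paired analysis was possible because each group has 1 library, which also means that no library could be left out. Of 484 single-gene ratios, 68 were at least 2-fold, and 64 of these kept their sign under the 25 alternatives. A kept sign is a lenient measure for ratios already at least 2-fold, and it does not show a kept size. Alternatives on single clusters and Cd8 subsets were chosen after the data were seen. Pairs at least 2-fold higher in CS against naive numbered 4 with at least 50 UMIs, against 10. Pairs lower there numbered 3 with at least 1 UMI and 1 with Scrublet's own threshold, thinned cells, all variable genes, means over cells, median-of-ratios scaling or no doublet removal, against 0. In NEVLP2 against CS, pairs higher numbered 12 with at least 1 UMI, 11 with thinned cells and 17 with median-of-ratios scaling, against 7. Pairs lower in NEVLP2 against naive numbered 16 and pairs higher in NEVLPcty against NEVLP2 numbered 6 with at least 1 UMI, against 10 and 3. The Kupffer-like over hepatocyte-like ratio of summed RT1- in NEVLPcty was 14.6 with thinned cells, 12.9 with means over cells and 17.2 without doublet removal, against 15.5. In NEVLP2 it was 10.6 with thinned cells and 8.69 with means over cells, against 10.2. In CS it was 10.1 with thinned cells and 10.4 without doublet removal, against 9.50, and in naive 16.2 and 13.3, against 14.0. In NEVLPcty against NEVLP2, 4 results changed sign. RT1-N3 in plasmacytoid dendritic-like cells had log2 0.26 with Scrublet's own threshold and 0.13 without doublet removal. RT1-T24-3 in endothelial-like cells had 0.0016 in cluster 8 and 0.087 at no more than 10% mitochondrial UMIs, and in hepatocyte-like cells 0.16 in cluster 4. Tap1 in hepatocyte-like cells had 1.37 in cluster 1. The cause of these changes was not tested. Depth limits Tap2, Nlrc5 and the rare RT1- genes most.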
